A study of Mus musculus with 16 samples.

Results

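The long RNA libraries of sorted microglia were examined for microRNA (miRNA) gene loci, the genome segments from which miRNA precursors are transcribed. The members were the rows of the deposited expression table whose gene symbol starts with Mir or Mirlet followed by a number, and they counted 190 of the 17951 genes listed. Of these, 184 were miRNA genes, the hairpin segments themselves, and 6 were miRNA host transcripts, which are longer RNAs with a symbol ending in hg. The microglia were gated as Cd11b and Cd45 positive cells from mice of the 5xFAD strain, in which mutant human amyloid precursor protein and presenilin transgenes are driven by a neuronal promoter, and all mice had received methoxy-X04 (Me-X04), a dye that binds amyloid. The groups were WT (7 libraries, non-transgenic mice of 2 months), TG Me-X04- (5 libraries, transgenic mice of 6 months, cells without the dye) and TG Me-X04+ (4 libraries, transgenic mice of 6 months, cells that had taken up the stained amyloid). Ages are those of the sample labels, whereas the study's methods list other ages, for wild-type and 5xFAD animals together. If the labels hold, age and transgenes cannot be told apart in the comparisons with WT. For 4 animals, both a TG Me-X04- and a TG Me-X04+ library were made, and these share their number.

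A miRNA is made in steps: a primary transcript is cut in the nucleus by Drosha and Dgcr8 to a hairpin, the hairpin is exported and cut by Dicer1, and 1 strand of the resulting duplex is loaded on an Argonaute protein, where its seed (bases 2 to 8) pairs with target mRNAs. Many miRNA hairpins lie inside introns of protein-coding genes and are transcribed with them. Mirtrons are a class of short intronic hairpins whose ends are made by splicing and not by Drosha. Libraries of long RNA, such as these, hold reads from primary and host transcripts over the hairpin segment, and do not measure the mature miRNA, whose libraries in the same study were prepared separately and are not analysed here. In microglia, miR-155 is known as a promoter and miR-146a as a brake of inflammatory signalling.

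Mature sequences were taken from RefSeq (GRCm38.p6), which held one for 168 of the 190 members. They are shown first for the loci that differed between phagocytic and non-phagocytic microglia, since a reader can then see which miRNA each locus would encode. Each is written 5′ to 3′ with the seed in capitals.
miR-7117-5p: uCUGGGGGcucagcugaggaua
miR-7117-3p: uGUCCUUCucuuucccccag
miR-7050-5p: aCAGGAGAagggggugagaga
miR-7050-3p: uCUCAGCCuuuaucuccccag
miR-703: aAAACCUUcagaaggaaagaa
miR-5114: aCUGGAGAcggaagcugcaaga
miR-7227-5p: uCUGAUGAcuuuuucauuga
miR-7227-3p: uCUGAAAAgggucaucggcaga
miR-8113: cAGGAGAGucaggggcaaguag
miR-3473e: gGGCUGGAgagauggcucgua
miR-8115: cCGCAAUAgcaacaagggcucu

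The 11 mature forms of these 8 loci had 11 distinct seeds, so no 2 of them share the full seed. The seed of miR-8113 was also that of miR-7012-5p and miR-7057-5p, and the seed of miR-7117-3p that of miR-6948-3p, all from other members. Among all members, 249 seeds were found and 15 were shared by at least 2 loci, which involved 29 loci.

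A second set is shown for some of the miRNAs that the study names and that can be related to a member or to a host gene in the table. The members Mir146 and Mir339 encode miR-146a and miR-339, Mir155hg carries miR-155 in an exon, and miR-211 lies in an intron of Trpm1. Mir29c, Mirlet7c-1 and Mir7670 encode miRNAs with the same seed as the named miR-29a-3p, let-7g-5p and miR-211-5p.
miR-146a-5p: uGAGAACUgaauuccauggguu
miR-339-5p: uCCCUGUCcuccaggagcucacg
miR-155-5p: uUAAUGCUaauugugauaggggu
miR-211-5p: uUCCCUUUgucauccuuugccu
miR-29a-3p: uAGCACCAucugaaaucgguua
miR-29c-3p: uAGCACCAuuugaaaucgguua
let-7g-5p: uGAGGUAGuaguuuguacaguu
let-7c-5p: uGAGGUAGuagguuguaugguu
miR-7670-3p: uUCCCUUUcugaauaucuguaga

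The miRNA genes were short and thinly covered. Their length ran from 54 to 139 bases with a median of 78 bases, whereas the median over all genes was 2849 bases. The reads on each gene could be recovered from the deposited values, since the values of a library are whole steps apart. The mean number of reads per library was 15.2 for the median miRNA gene and 152.5 for the median gene of the table. Of the 184 miRNA genes, 54 had a mean under 10 reads, 86 had 10 to 30 reads and 44 had at least 30 reads. Only 9 reached 100 reads, and 110 had 0 reads in at least 1 library. The 6 host transcripts were 269 to 14045 bases long and held a mean of 19.4 to 1723 reads. All of these loci had passed the filter on low expression that the authors applied before deposit, and miRNA genes outside the table are not analysed here. Every log2 value carries the authors' added prior of 1.27 to 2.63 reads, depending on the library, so a fold change of a locus with few reads is understated.

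The libraries fell into 2 sets that cut across the groups. When each group's mean was subtracted, the leading principal component held 37.8% of the variance and put 7 libraries in set A (WT 1 to 3 and numbers 1 and 2 of both transgenic groups) and 9 in set B. The study names 2 sequencers, the second for samples added later, without saying which library ran on which. The listed genes held 15623664 to 22119327 reads in WT libraries, 17216633 to 25184600 in TG Me-X04- libraries and 22430251 to 27579017 in those of TG Me-X04+. Genes of the mitochondrial genome took 11.0 to 24.1% of these in WT libraries, 18.2 to 35.6% in TG Me-X04- libraries and 27.2 to 44.8% in those of TG Me-X04+, and the part of this share in the results below was not tested. All 10 microglia markers checked were listed, with a summed level of 12.1 to 13.0 log2 RPKM over all 16 libraries, but Tmem119 was DE lower in phagocytic than in other transgenic microglia (log2FC -1.58, adjusted p = 0.00821, limma), and Tmem119 and P2ry12 were DE lower than in WT (-1.55 and -0.97). The highest summed level in any library was 4.29 log2 RPKM for the 2 listed neutrophil markers, 4.17 for the 4 of monocytes and border macrophages, 3.02 for the 4 of oligodendrocytes, 2.19 for the 3 of astrocytes and 0.93 for the 3 of neurons. Of the 2 listed endothelial markers, Flt1 was DE higher in phagocytic than in other transgenic microglia (log2FC 3.55, adjusted p = 0.00608, limma). Against WT, Flt1 was DE higher (5.87) and Pecam1 DE lower (-4.83). Their summed level was 0.18 to 2.92 log2 RPKM in TG Me-X04+, 0.25 to 0.99 in TG Me-X04- and 1.18 to 3.64 in WT. The part of these markers in the results was not tested. In bulk RNA, fewer cells of a type and less RNA per cell cannot be told apart.

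The miRNA loci showed this split between the sets more than other genes did. In set B, 0 to 9 of the 184 miRNA genes had no read in a library. In set A, 20 to 63 had none. The median miRNA gene was 0.81 higher on the log2 scale in set B than in set A (mean of the 3 within-group differences), against 0.21 for the 17761 genes that are no members and 0.64 for the 428 of these that are no longer than 139 bases. In 35 miRNA genes every set B library had more reads than every set A library, and the opposite was found for 0. These are unscaled reads, and the share over all genes is not given here. Every set B library had a larger scaled size (2.29e+07 to 2.75e+07) than every set A library (1.32e+07 to 1.99e+07). The sets were also drawn from these same values. Mir1903 was the clearest case of the split, with 0 reads in all set A libraries and 21 to 50 reads in set B. Mir6236 held 27 to 134 reads in set A and 2627 to 20865 in set B. The values within each set are therefore given below wherever they change the picture.

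**Figure D1:**
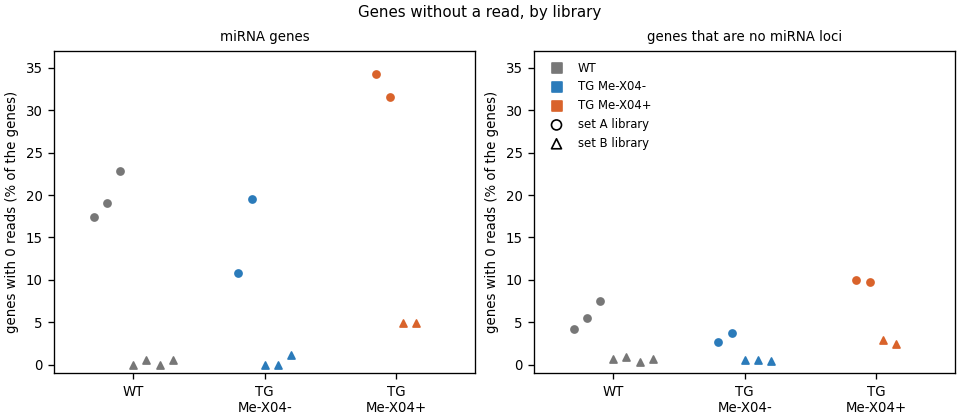
Share of genes with 0 reads in each library (y axis, % of the genes), for the 184 miRNA genes on the left and for the 17761 genes that are no members on the right, by group and with circles for set A and triangles for set B. The miRNA genes without a read range from 10.9 to 34.2% in set A and from 0 to 4.89% in set B, and in both sets the TG Me-X04+ libraries are the highest.

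The share of miRNA genes without a read was highest in TG Me-X04+ within both sets. In set A it was 31.5 and 34.2% in the 2 TG Me-X04+ libraries, against 10.9 and 19.6% in TG Me-X04- and 17.4 to 22.8% in WT. In set B it was 4.89% in both TG Me-X04+ libraries and at most 1.09% in the other 7. Over the sets together the share was 18.9 ± 16.2% (SD, n = 4) for TG Me-X04+ against 6.30 ± 8.71% (n = 5) for TG Me-X04-, a difference smaller than the spread between libraries (two-sided exact permutation test, p = 0.19, adjusted p = 0.405 over 6 tests). The reads on miRNA genes other than Mir6236 were 226 ± 102 RPM (scaled to the library's reads) for TG Me-X04+ against 303 ± 97.3 RPM for TG Me-X04- (exact permutation p = 0.27, adjusted p = 0.405). These tests set aside the pairing. In all 4 animals with both libraries, the share without a read was higher and the RPM lower in the TG Me-X04+ library. The mean differences were 11.3 ± 8.72 percentage points (SD, n = 4) and -54.4 ± 32.5 RPM. The two-sided exact permutation test over these pairs gave p = 0.125 for each, the smallest that 4 pairs allow. This RPM divides by all counted reads, mitochondrial ones included, and the direction of its difference depends on that scaling. In animals TG1 and TG2 the TG Me-X04+ library held 3358 and 3867 such reads, against 4253 and 4220 in the TG Me-X04- library. In TG3 and TG4 it held 8325 and 7079, against 7720 and 7094. The library sizes behind the log2 RPKM values were smaller in TG Me-X04+ in all 4 animals. They were 1.32e+07, 1.50e+07, 2.29e+07 and 2.36e+07, against 1.65e+07, 1.99e+07, 2.75e+07 and 2.53e+07. Relative to these sizes, the reads were higher in TG Me-X04+ in TG2, TG3 and TG4, and slightly lower in TG1. The share without a read moved likewise in genes that are no members, at 2.48 to 9.95% for TG Me-X04+ against 0.456 to 3.75% for TG Me-X04-.

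The loci were placed by the gene annotation on GRCm38. Of the 184 miRNA genes, 94 lay wholly in introns of another gene, 85 overlapped an exon of another gene and 5 lay outside other genes. Of the 85, 32 held coding bases of the host, 25 held untranslated bases without coding bases, and 28 overlapped other exons, such as those of non-coding and retained-intron transcripts. On the opposite strand of the host lay 10 of the intronic and 5 of the exonic loci. Whether strand was used in the counting, and how a read over 2 features was treated, is not stated in the sources used here, so reads of a host mRNA and of a locus inside its exon cannot be told apart. Rows that overlap each other showed how close the counts of such features can be. The 2 rows named Mir677 had equal reads in 11 of 16 libraries and differed by at most 3 reads. Mir142 never had more reads than Mir142b on the other strand in any of the 16 libraries. Their totals were 299 and 451 reads, with a largest difference of 32 in a library. Mir1a-2 and Mir1b, on opposite strands, held 206 and 260 reads in total and differed by at most 9 in any library. The counts were thus close for the rows of Mir677 and for Mir1a-2 and Mir1b, and less so for Mir142 and Mir142b. Whether the same reads were counted in both rows was not tested.

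A further feature that the choice of members did not use was the position at splice sites. The 3′ end of 64 miRNA genes lay directly before an exon of a protein-coding transcript of the host, the place of the splice acceptor, and 6 of these also began directly after an exon, so that the locus filled the intron. In the 58 mature 3p forms of such loci, 45 ended in the AG of a splice acceptor, as miR-7117-3p and miR-7050-3p above do, against 5 of the 46 other 3p forms. Since a splice acceptor ends in AG, this count follows largely from the position and is no separate result. A hairpin that fills its intron has the position of a mirtron. The median log2FC of the 64 loci for TG Me-X04+ against TG Me-X04- was -0.27, and that of the other miRNA genes -0.41.

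The loci with the highest level were Mir6983, Mir6236, Mir3064, Mir682 and Mir1896, with mean levels of 8.92, 8.52, 7.60, 7.33 and 6.44 log2 RPKM over all libraries. Mir6983 lies in an intron of Csf1r, the receptor on which microglia depend for survival, directly before an exon. It held 430 to 809 reads in WT, 553 to 767 for TG Me-X04- and 458 to 759 for TG Me-X04+, and these ranges overlapped throughout. Its level was 8.84 ± 0.14 log2 RPKM (SD, n = 7) for WT, 8.87 ± 0.31 (n = 5) for TG Me-X04- and 9.12 ± 0.24 (n = 4) for TG Me-X04+, and Csf1r itself was at 9.31 ± 0.19, 9.26 ± 0.12 and 9.37 ± 0.30. Mir3064 overlaps an exon of Ddx5, a helicase that assists Drosha, and its level of 7.81 ± 0.87, 7.77 ± 1.21 and 7.02 ± 1.85 log2 RPKM in the same order did not differ between groups beyond its spread (adjusted p of at least 0.511 in all 3 comparisons, limma).

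In TG Me-X04+ microglia compared with TG Me-X04-, 10 miRNA loci were differentially expressed (DE), defined by an adjusted p under 0.05 over all 17951 genes and an absolute log2FC of at least 0.7. Of these, 4 were higher and 6 lower in phagocytic microglia. The 10 loci are 5.26% of the members, and the background over all genes was 5.49%, so the share of DE loci was close to that of all genes. By direction, 2.11% of the members were higher against 3.44% of all genes, and 3.16% were lower against 2.06% of all genes. The groups did not overlap in 5.79% of the members and 7.93% of all genes, and an unadjusted p under 0.05 was found for 16.3 and 18.7%. The median log2FC of the members was -0.39, that of all genes was -0.09, and 68.4% of the members against 55.6% of all genes had a log2FC below 0. Within set A the medians were -0.46 for the members and -0.10 for all genes, and within set B they were -0.21 and -0.02. The scaling matters for these medians: scaling by the reads outside mitochondrial genes moved the median of all genes to -0.46 and that of the members to -0.64. The 10 calls were 4 higher and 6 lower as reported, but 2 higher and 10 lower of 12 with that scaling. With only the set B libraries, 23 loci were called, 7 of them shared with the 10, and with only the set A libraries 2 were called, 1 of them shared. Over all genes, 2262 and 85 were called in these fits. Of the 10 calls, those of Mir7117, Mir7050, Mir7227, Mir17hg and Mir8115 held under every other fit of both sets together and without any single library. In the 16 fits without a single library, Mir703 was called in 15, Mir1a-2 in 9, Mir5114 in 6, and Mir8113 and Mir3473e in 5 each.

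The 4 loci that rose in phagocytic microglia were Mir7117, Mir7050, Mir703 and Mir5114. Mir7117 (chr15:27571494-27571558, plus strand) lies in an intron of Ank, a transporter that exports pyrophosphate and ATP, where a retained-intron transcript is also annotated. Its 3′ end meets the next exon. Its reads were 57, 62, 60 and 53 in the TG Me-X04+ libraries, against 17, 9, 12, 7 and 7 in TG Me-X04-, and 0 to 5 with a median of 2 in WT. The 3 groups did not overlap in log2 RPKM. The level was 5.67 ± 0.46 log2 RPKM in TG Me-X04+, 3.06 ± 0.65 in TG Me-X04- and 1.49 ± 0.51 in WT. The log2FC between phagocytic and non-phagocytic cells was 2.61 ± 0.35 (SE; adjusted p = 0.000493, limma), with 2.46 in set A and 2.58 in set B. Ank itself had a log2FC of 2.73 (adjusted p = 2.12e-05).

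Mir7050 (chr7:31040258-31040317, minus strand) sits directly before an exon of Fxyd5, a regulator of the sodium pump, and 15 of its 60 bases are coding in an annotated transcript. It had 34, 35, 48 and 61 reads in TG Me-X04+, against 22, 11, 5, 11 and 7 in TG Me-X04-, and 1 to 6 with a median of 3 in WT. All TG Me-X04+ libraries were above all others, whereas TG Me-X04- overlapped WT in log2 RPKM. The log2FC was 2.17 ± 0.36 (adjusted p = 0.00199, limma), with 1.40 within set A and 2.66 within set B, and Fxyd5 had a log2FC of 2.40 (adjusted p = 0.00552).

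Mir5114 (chr19:44303171-44303231, plus strand) lies in an exon of Scd2, a desaturase of fatty acid synthesis, over untranslated and coding bases. Its reads were 38, 98, 120 and 93 in TG Me-X04+, against 45, 37, 37, 29 and 33 in TG Me-X04-, and 2 to 19 with a median of 10 in WT. The groups did not overlap in log2 RPKM, although the lowest TG Me-X04+ library was close to the highest TG Me-X04- library (5.61 and 5.53). The log2FC was 1.42 ± 0.40 (adjusted p = 0.0466, limma), just inside the threshold. The call was lost when the replicate number was blocked (adjusted p = 0.0838), a block that also joins WT animals that share only a number. With the animal as a random block the call was kept. Scd2 had a log2FC of 1.29 (adjusted p = 0.0615). With scaling by the reads outside mitochondrial genes neither Mir5114 nor Mir703 was called.

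Mir703 (chr5:98475556-98475664, minus strand) lies far inside an intron of Cfap299 on the opposite strand, and this host is not in the table. It had 106, 141, 174 and 109 reads in TG Me-X04+, against 34, 72, 85, 48 and 41 in TG Me-X04-, and 13 to 50 with a median of 29 in WT. All TG Me-X04+ libraries were the highest. The log2FC was 1.57 ± 0.36 (adjusted p = 0.0167, limma), with 1.63 within set A and 1.43 within set B. Among the 4 that rose, it was the one that could not be set beside its host.

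**Figure D2:**
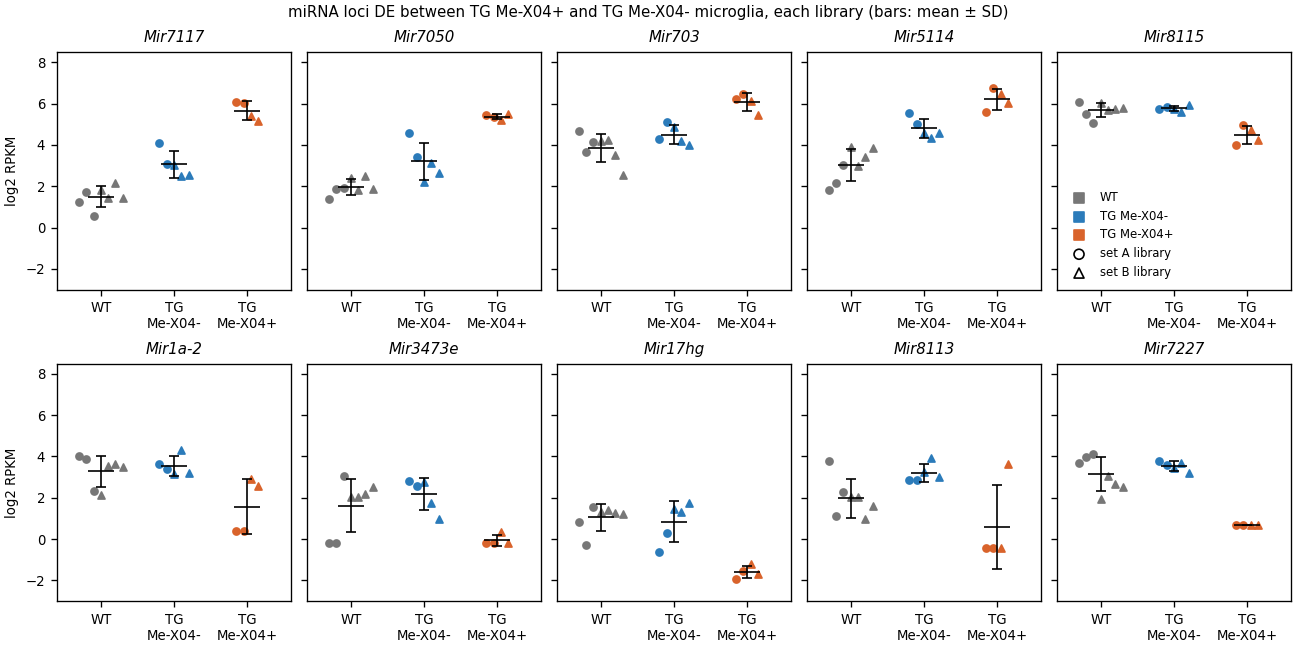
Level in log2 RPKM (y axis) of the 10 miRNA loci DE for TG Me-X04+ against TG Me-X04- microglia in every library, by group (x axis), with circles for set A, triangles for set B and bars for mean ± SD. Mir7227 is at its floor of 0.70 in all 4 TG Me-X04+ libraries, and Mir8113 is low in 3 of them and at 3.62 in 1.

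The 6 loci that fell were Mir7227, Mir8113, Mir17hg, Mir3473e, Mir1a-2 and Mir8115. Mir7227 (chr4:133717050-133717108, minus strand) lies in an intron of Arid1a, a subunit of the SWI/SNF chromatin remodeller, 2251 bases from its nearest exon. It had 0 reads in all 4 TG Me-X04+ libraries, 12, 12, 15, 17 and 11 reads in TG Me-X04-, and 3 to 14 with a median of 10 in WT. Against the limit that a count of 0 allows (3 reads in each library), its RPM was at least 3.49-fold lower than in TG Me-X04- and at least 2.91-fold lower than in WT. The fitted log2FC of -2.85 ± 0.37 (adjusted p = 0.00038, limma) depends on the authors' prior. Arid1a had a log2FC of -0.29 (adjusted p = 0.656).

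Mir8115 (chr5:122682597-122682715, plus strand) is covered wholly by untranslated sequence of P2rx7, an ATP-gated channel of microglia, and was the best covered of the hairpins that fell. Its reads were 24, 55, 69 and 51 in TG Me-X04+, against 105, 133, 174, 145 and 177 in TG Me-X04-, and 57 to 176 with a median of 155 in WT. In log2 RPKM all TG Me-X04+ libraries were below all others. The log2FC was -1.29 ± 0.23 (adjusted p = 0.00283, limma), with -1.30 in set A and -1.29 in set B. P2rx7 had a smaller log2FC of -0.59 (adjusted p = 0.0305), which is under the fold threshold.

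Mir17hg, the transcript that carries the miR-17 to miR-92 cluster, known for its role in proliferation, had 11, 17, 33 and 24 reads in TG Me-X04+, against 36, 85, 269, 220 and 289 in TG Me-X04-, and 46 to 238 with a median of 197 in WT. All TG Me-X04+ libraries were below all others. Its log2FC was -2.42 ± 0.49 (adjusted p = 0.00759, limma), with -1.56 within set A and -2.95 within set B, and it was called under all 15 alternatives tried for it and without any single library.

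The remaining 3 rested on few reads or on a part of the libraries. Mir8113, which overlaps coding and retained-intron sequence of Cd27, a receptor of the TNF family, had 0, 0, 0 and 35 reads in TG Me-X04+, against 14, 17, 31, 47 and 23 in TG Me-X04-. Its groups overlapped because of the fourth TG Me-X04+ library (log2FC -2.60 ± 0.72, adjusted p = 0.042, limma), and Cd27 had a log2FC of -0.33. Mir3473e, in an intron of the ribokinase gene Rbks, had 0, 0, 1 and 0 reads against 11, 11, 18, 7 and 3 (log2FC -2.24 ± 0.62, adjusted p = 0.041), and Rbks fell too (log2FC -1.42, adjusted p = 0.0413). With the replicate block the adjusted p of Mir3473e was 0.0541, and with the animal as a random block its call was kept.

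Mir1a-2 on chromosome 18, in an intron of Mir133a-1hg, encodes miR-1a, a miRNA of muscle. It had 0, 0, 10 and 8 reads in TG Me-X04+, against 13, 13, 15, 34 and 14 in TG Me-X04-, so the 2 set A libraries of TG Me-X04+ were without a read. Its log2FC was -1.96 ± 0.53 (adjusted p = 0.0375), -3.09 within set A but -0.82 within set B. The adjusted p was 0.105 with the replicate block, and the call was kept with the animal as a random block. Mir1b, a row that covers the same segment on the other strand, had at least as many reads in all 16 libraries and a log2FC of -1.91 (adjusted p = 0.07). Just outside the threshold stood Mir692-2 with a log2FC of 1.31 and an adjusted p of 0.0534. It overlaps a ferritin light chain pseudogene, Ftl2-ps, in whose gene family reads can be shared between copies.

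The change of a locus was then set beside that of its host for all loci with a host in the table. For the 85 loci over exons, Pearson's r between locus and host log2FC was 0.72 (Spearman's rho 0.66) for TG Me-X04+ against TG Me-X04-. For the 93 loci in introns it was 0.48 (rho 0.42). These are correlations across loci within the same libraries, and loci are not independent replicates. Among loci with a mean of at least 30 reads the r was 0.88 over exons (27 loci) and 0.69 in introns (15 loci). Of the 5 exonic loci that were DE, 2 had a host that was DE in the same direction, and of the 3 intronic ones with a listed host, 1 had. Mir7117 counts here as exonic, through the retained-intron transcript of Ank. The level per length of the listed loci was close to that of the host. The median difference, locus minus host, was -0.10 log2 RPKM over exons and -0.44 in introns, where 35 of 93 loci were above their host. Such short loci pass the authors' filter on low expression only at a high level per length. Loci far below their host can thus be missing, and the closeness is in part set by the filter. The median log2FC of the loci was below that of their hosts, at -0.27 against 0.09 over exons and -0.53 against -0.11 in introns.

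**Figure D3:**
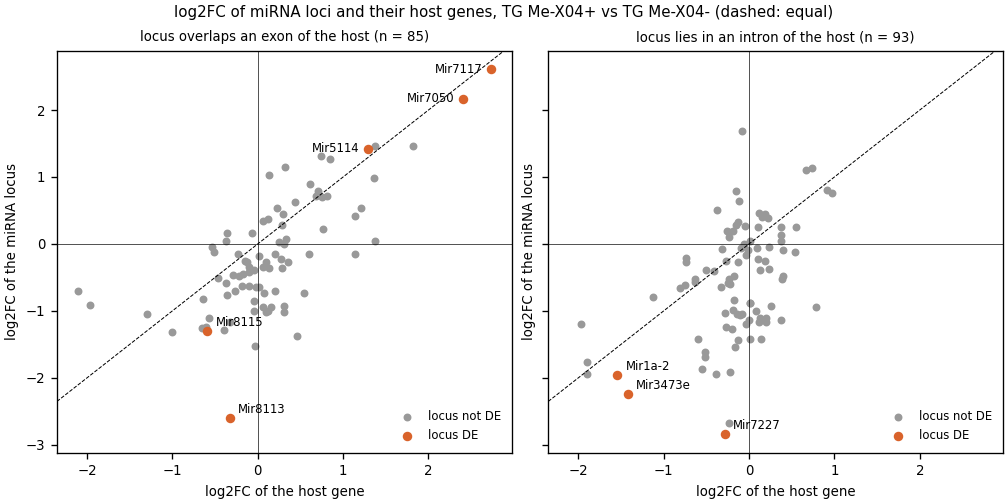
log2FC of each miRNA locus (y axis) against that of its host gene (x axis) for TG Me-X04+ against TG Me-X04-, for 85 loci over exons (left) and 93 loci in introns (right), with DE loci in colour and a dashed line where both are equal. Mir7117, Mir7050 and Mir5114 lie near the line, while Mir8113 and Mir7227 lie far below it.

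The 6 host transcripts differed in their course over the groups. Mir17hg, described above, was the only one of them that was DE for TG Me-X04+ against TG Me-X04-. Mir142hg carries miR-142, a miRNA of blood cells and microglia, and had 1, 23, 129 and 108 reads in TG Me-X04+, against 44, 25, 511, 355 and 223 in TG Me-X04-, and 42 to 398 with a median of 233 in WT. The set B libraries were the higher in both transgenic groups, and the log2FC of -1.90 ± 0.93 missed the threshold (adjusted p = 0.287, limma), with -1.87 within set A and -1.37 within set B. Mir99ahg, the host of miR-99a and let-7c, had 1146, 481, 987 and 1413 reads in TG Me-X04+, against 1175, 807, 2058, 1292 and 1314 in TG Me-X04-, and 1791 to 3565 with a median of 2180 in WT. Its log2FC was -0.13 ± 0.37 for TG Me-X04+ against TG Me-X04- (adjusted p = 0.891, limma) and -1.02 ± 0.32 between TG Me-X04- and WT (adjusted p = 0.49). Mir22hg, which carries miR-22 in an exon, had group means of 0.42 ± 0.85, 0.34 ± 0.43 and -0.21 ± 1.25 log2 RPKM in the order WT, TG Me-X04-, TG Me-X04+, and these ranges overlapped. Mir133a-1hg, a muscle miRNA host, had 2, 0, 22 and 22 reads in TG Me-X04+, against 7, 7, 77, 54 and 33 in TG Me-X04- (log2FC -1.54 ± 0.73, adjusted p = 0.269).

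**Figure D4:**
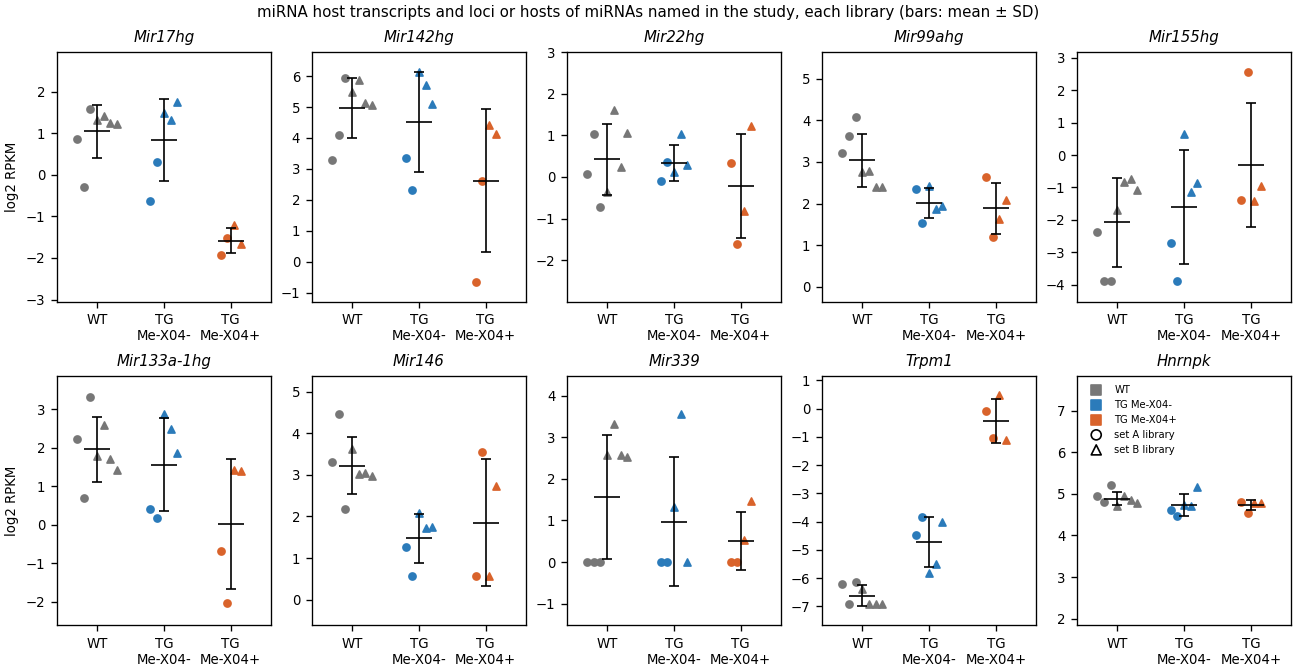
Level in log2 RPKM (y axes of different range) of the 6 miRNA host transcripts, of the members Mir146 and Mir339 and of the host genes Trpm1 and Hnrnpk in every library, by group, with circles for set A, triangles for set B and bars for mean ± SD. Mir17hg is lowest and Trpm1 highest in all 4 TG Me-X04+ libraries, and 1 TG Me-X04+ library of Mir155hg stands at 2.56.

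Of the miRNAs that the study names, miR-155 and miR-211 have a host in the table but no row of their own. Mir155hg had 6, 125, 10 and 15 reads in TG Me-X04+, against 2, 0, 59, 14 and 17 in TG Me-X04-, and 0 to 19 with a median of 8 in WT. The second TG Me-X04+ library stood far above the other 3, and the groups overlapped. The log2FC was 1.29 ± 1.01 for TG Me-X04+ against TG Me-X04- (adjusted p = 0.55) and 0.48 ± 0.89 between TG Me-X04- and WT (adjusted p = 0.999, limma), and the former ran from 3.90 in set A to -0.74 in set B. Trpm1, a cation channel gene whose intron holds Mir211, had 143, 82, 369 and 123 reads in TG Me-X04+, against 7, 14, 3, 4 and 15 in TG Me-X04-, and 0 or 1 in the WT libraries. The 3 groups did not overlap. The log2FC of Trpm1 was 4.30 ± 0.58 between phagocytic and non-phagocytic cells (adjusted p = 0.000493), 3.60 within set A and 4.80 within set B. Between TG Me-X04- and WT it was 1.89 ± 0.51 (adjusted p = 0.26), at a depth of a few reads. The RPKM of Trpm1 is low, so these sizes depend on the added constant: on the scale of log2(value + 1) they were 0.78, still called, and 0.046.

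The study follows 9 further miRNAs in phagocytic microglia, and members encode 2 of them. Mir146 (chr11:43374397-43374461, minus strand, outside other genes) had 0, 10, 0 and 8 reads in TG Me-X04+, against 1, 0, 5, 3 and 3 in TG Me-X04-, and 3 to 22 with a median of 11 in WT. All TG Me-X04- libraries were below all WT libraries in log2 RPKM, while TG Me-X04+ overlapped both. The log2FC was 0.38 ± 0.57 for TG Me-X04+ against TG Me-X04- (adjusted p = 0.784) and -1.75 ± 0.50 between TG Me-X04- and WT (unadjusted p = 0.00269, adjusted p = 0.352, limma). With library weights Mir146 was called lower in TG Me-X04- than in WT (log2FC -1.43, adjusted p = 0.0179), and under the other 13 alternatives it was not. Mir339 (chr5:139369650-139369745, minus strand), in an intron of 3110082I17Rik, had 0 reads in all 7 set A libraries, so only set B bears on it. There it had 1 and 4 reads in TG Me-X04+, against 4, 26 and 0 in TG Me-X04-, and 11 to 22 in WT. The differences within set B were -0.62 for TG Me-X04+ against TG Me-X04- and -1.12 for TG Me-X04- against WT on the log2 scale, and the ranges overlapped in both.

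Of the other 7 miRNAs, the loci are not analysed here, and 6 have a protein-coding host in the table. The hosts were Hnrnpk (miR-7a), Wdr82 (let-7g), Wwp2 (miR-140), Copz1 (miR-148b), Clcn5 (miR-532) and Map2k4 (miR-744). A further locus of miR-7a, Mir7-2, lies outside other genes and has no row, so Hnrnpk does not cover every source of miR-7a. None of the 6 hosts was DE for TG Me-X04+ against TG Me-X04- (limma, adjusted p of 0.361 to 0.981) nor between TG Me-X04- and WT (0.999 each). Hnrnpk, an RNA-binding protein, was the best covered of them with 1973 to 4988 reads per library, and its level of 4.89 ± 0.17 log2 RPKM for WT, 4.74 ± 0.26 for TG Me-X04- and 4.73 ± 0.12 for TG Me-X04+ left a log2FC of -0.01 ± 0.17 between the transgenic groups. The log2FC of Wdr82 was -0.57 ± 0.32 and that of Clcn5 -0.44 ± 0.27. Mir29c had 13, 3, 25 and 12 reads in TG Me-X04+, against 14, 9, 15, 35 and 35 in TG Me-X04-, and 9 to 23 in WT. Its log2FC between the transgenic groups was -0.45 ± 0.38 (adjusted p = 0.592, limma). Mirlet7c-1 had 3, 3, 20 and 13 reads in TG Me-X04+ against 6, 4, 4, 7 and 17 in TG Me-X04- and 1 to 17 in WT (log2FC 0.32 ± 0.54, adjusted p = 0.804). Mir7670, over an exon of Ubn2, had 4, 5, 6 and 8 reads in TG Me-X04+, against 9, 13, 5, 8 and 10 in TG Me-X04-, and 5 to 14 in WT (log2FC -0.27 ± 0.30, adjusted p = 0.69). The ranges of these 3 loci overlapped in all groups.

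Between TG Me-X04- and WT microglia, 2 loci were DE, Mir7117 and Mir5114, both higher in the transgenic cells. They are 1.05% of the members, where the background over all genes was 0.201% (0.189% higher, 0.0111% lower). An unadjusted p under 0.05 was found for 13 members, 6.84% against 5.18% of all genes, and 47.9% of the members against 48.4% of all genes had a log2FC below 0. The log2FC was 1.57 ± 0.31 for Mir7117 (adjusted p = 0.0447, limma) and 1.77 ± 0.35 for Mir5114 (adjusted p = 0.0475), and both were larger in set A (2.41 and 2.92) than in set B (0.99 and 0.94). The groups did not overlap for Mir7117, Mir5114 and Mir146, 1.58% of the members against 1.06% of all genes. Both calls are near the threshold: leaving out single libraries left 0 or 1. Blocking by replicate number left neither (limma, adjusted p = 0.0663 and 0.108), but that block joins WT and transgenic animals that share only a number. Ank was higher as well (log2FC 1.23, adjusted p = 0.0265), and Scd2 had a log2FC of 0.80 (adjusted p = 0.866).

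Between TG Me-X04+ and WT microglia, 22 loci were DE, 8 higher and 14 lower, which is 11.6% of the members against 14.3% of all genes. By direction, 4.21% were higher against 8.25% of all genes and 7.37% lower against 6.02%. The groups did not overlap in 6.84% of the members and 10.5% of all genes, an unadjusted p under 0.05 was found for 24.2 and 27.8%, and a log2FC below 0 for 71.6 and 55.9%. This comparison shares the TG Me-X04+ libraries with the first and the WT libraries with the second. The 4 loci that rose against TG Me-X04- were also higher than in WT, with log2FC of 4.18 for Mir7117 (adjusted p = 3.27e-07), 3.41 for Mir7050 (4.05e-06), 3.19 for Mir5114 (2.13e-05) and 2.22 for Mir703 (0.000212). The other 4 that rose were Mir5107, Mir5121, Mir692-2 and Mir682. Mir5107, at the edge of an exon of Cd74, the invariant chain of MHC class II, had 85, 120, 423 and 68 reads in TG Me-X04+ against 0 to 45 in WT (log2FC 3.57 ± 0.71, adjusted p = 0.00203, limma), and Cd74 had a log2FC of 4.30. Mir5121 (log2FC 1.51, adjusted p = 0.0468) overlaps the ribosomal protein gene Rpl13a, Mir692-2 (1.56, 0.00561) the ferritin pseudogene Ftl2-ps, and Mir682 (2.04, 0.0213) the processed pseudogene Gm4149. The call of Mir5121 was lost under 5 of 15 alternatives and was kept in 3 of the 16 fits without a single library. Reads of the latter 2 can come from other copies of their gene families.

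Of the 14 loci that were lower than in WT, Mir17hg (log2FC -2.63 ± 0.46, adjusted p = 0.000739), Mir7227 (-2.45), Mir8115 (-1.21) and Mir1a-2 (-1.71) had also fallen against TG Me-X04-. Mir99ahg was lower by a log2FC of -1.15 ± 0.34 (adjusted p = 0.0311, limma), and Mir99a in its intron had 1, 0, 3 and 0 reads in TG Me-X04+ against 1 to 19 with a median of 8 in WT (-1.66 ± 0.53, adjusted p = 0.044). The call of Mir99a was lost under 5 of 14 alternatives and in 9 of the 16 fits without a single library. Mirlet7c-1, in the same host, had a log2FC of 0.03 (adjusted p = 0.977). Mir6541, in an intron of Wdfy2, had 0, 0, 0 and 3 reads against 6 to 34 in WT (-2.48 ± 0.52, adjusted p = 0.00325), and Wdfy2 fell with it (-2.15, adjusted p = 0.00561).

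Another 4 overlap annotated exons of a protein-coding gene. Mir6981 in Arap3, a regulator of small GTPases, had a log2FC of -1.97 (adjusted p = 0.0106) beside -1.05 of its host (0.000703), with -3.17 in set A and -0.89 in set B. Mir8114 overlaps untranslated sequence of Glul, glutamine synthetase, and had a log2FC of -1.44 (adjusted p = 0.0181) beside -0.68 (0.0538). Mir6537 covers coding bases of Pou2f2, a lymphoid transcription factor gene (-1.26, adjusted p = 0.035), and its host had a log2FC of -0.26 (0.838). Mir7036 in Srrt, a factor that hands primary miRNAs to Drosha, was at -1.95 (0.0282) while Srrt was at 0.02 (0.966).

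Mir6896 in an intron of Dst was at -1.56 (adjusted p = 0.0116), Mir1896 in an exon of the non-coding 4930470G03Rik at -0.77 (0.0238), and Mir1b at -1.92 (0.0247), with -3.47 within set A and -0.42 within set B. Mir1b and Mir1a-2 cover the same segment with close counts, so their calls are not taken as separate results. With the replicate block Mir1896 (adjusted p = 0.065), Mir1b (0.11), Mir1a-2 (0.119) and Mir6537 (0.0677) were no longer called. That block joins WT and transgenic animals that share only a number.

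The genes that make and carry miRNAs were taken as a list: 23 of them were in the table, from Drosha and Dgcr8 to Dicer1, the Argonautes and the decay factors. For TG Me-X04+ against TG Me-X04-, and for TG Me-X04- against WT, 0 of the 23 were DE, against 5.49% and 0.201% of all genes. In the same order, the median log2FC of the list was -0.09 and -0.15, and that of all genes -0.09 and 0.01. An unadjusted p under 0.05 was found for 1 of the 23 in the former and 0 in the latter comparison, against 18.7% and 5.18% of all genes, and limma voom on the recovered reads called 0 in both. With the animal as a random block, Tarbp2, a partner of Dicer1, was called lower for TG Me-X04+ against TG Me-X04- (log2FC -1.52, adjusted p = 0.0441). Between TG Me-X04+ and WT, 1 of the 23 was DE against 14.3% of all genes, and 3 had an unadjusted p under 0.05 against 27.8%. This was Tarbp2 with a log2FC of -1.79 ± 0.52 (adjusted p = 0.0277, limma). The replicate block, which joins WT and transgenic animals that share only a number, left this call out (adjusted p = 0.0715). The animal as a random block kept it (adjusted p = 0.0354). The median of the list was -0.19 against -0.11 over all genes. Ddx5 came under the adjusted p but not over the fold threshold (-0.63 ± 0.19, adjusted p = 0.037). Dicer1 was at 2.90 ± 0.23, 2.82 ± 0.25 and 2.73 ± 0.28 log2 RPKM, and Drosha at 2.21 ± 0.46, 2.12 ± 0.47 and 2.02 ± 0.25, in the order WT, TG Me-X04-, TG Me-X04+.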

How the data were processed

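Total RNA of sorted microglia was sequenced in 16 libraries (7 WT, 5 TG Me-X04-, 4 TG Me-X04+). Per the study's methods, the authors trimmed reads with Trim Galore 0.4.4, aligned them to GRCm38 with STAR 2.5.4b, assigned them to Gencode genes using featureCounts, filtered out low genes and normalized with edgeR 3.24.3. The deposited values are log2 RPKM with a prior count. The deposited columns of the authors' own comparisons (log2 fold changes, p-values, adjusted p-values and moderated scores) were not used.

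Reads were recovered from the equal steps between log2 RPKM values of a library, and 100.0% of values were whole within 0.01 reads. Groups were compared with limma 3.58.1 (R 4.3.3) on the log2 values, with a variance trend, 1 fit of all groups, no covariate and Benjamini-Hochberg adjustment over 17951 genes. The study's count test needs counts, so limma on log2 values took its place. On simulated data, where 200 genes were changed by 2 on the log2 scale for TG Me-X04+ against TG Me-X04-, 194 were called with the right sign and 13 unchanged genes were called. Positions came from the gene annotation on GRCm38 and sequences from RefSeq. Set A and set B follow the sign of the first principal component.

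Named loci are those DE in any comparison, host transcripts, those of miRNAs that the study names, the highest by level or reads, those next to a threshold, and their hosts. The same-seed loci, examples of the split between sets and overlapping rows were chosen after their values were seen. Members and lists were chosen with earlier results of these data known. The transgenic libraries that share a number come from the same animal, and their deviations correlated with r of 0.292 to 0.329 over 4 pairs (mean 0.317, against 0.272 for libraries of the same set with other numbers). The numbers of WT mark other animals, so in comparisons with WT the replicate block joins unrelated animals. Between TG Me-X04- and WT, libraries with the same number had a mean r of 0.163, against 0.315 for other numbers of the same set. Alternatives covered normalization, pseudocounts, filters, variance models, the block and left-out libraries, and fits within set A or set B and the test over pairs were added after seeing the data. P-values measure the spread between these libraries. 1 locus next to a threshold is not reported here.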

Additional observations from a re-analysis of the deposited data

Results flagged for a closer look

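Among groups of 4, 5 or 7 libraries, 6 of 102 tested groups of the 34 named members held a library far from the others, and chance flags about 1 in 20 groups. Mir155hg stood at 2.56 log2 RPKM (125 reads) in TG Me-X04+ replicate 2, with the others at -1.43 to -0.97. Mir17hg stood at -0.30 (46 reads) in WT replicate 2, with the others at 0.85 to 1.58. Mir1896 stood at 5.95 (98 reads) in TG Me-X04- replicate 2, with the others at 6.61 to 6.77. In 3 loci the other TG Me-X04+ libraries had no read: Mir3473e stood at 0.34 (1 read) in replicate 3, Mir6541 at 1.02 (3 reads) in replicate 4 and Mir8113 at 3.62 (35 reads) in replicate 4. Among these, the Mir8113 library held as many reads as the TG Me-X04- libraries, where 14 to 47 were found.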

How the results depend on the processing

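Of 57 named results, 29 kept their direction and side of the threshold under every setting and left-out library. For TG Me-X04+ against TG Me-X04-, 10 loci (986 of all genes) became 6 (880) with no variance trend, 21 (2142) with a term for the sets, 17 (2110) with the animal as a random replicate block, 2 (85) with set A alone and 23 (2262) with set B alone, and 5 to 12 without single libraries (5 without TG Me-X04+ replicate 2, 6 without TG Me-X04- replicate 4). Between TG Me-X04- and WT, 2 loci (36 of all genes) became 4 (175) with library weights, Mir146 among them, 1 with a robust variance model, median centring or the random replicate block, and 0 with no trend, log2(value + 1), a mean log2 RPKM of at least 0, only the 2 groups, voom, the replicate block, set A or set B. Without any 1 of the 16 libraries it was 0 or 1. Between TG Me-X04+ and WT, 22 (2562 of all genes) became 12 (2328) with voom, 42 (3919) with a term for the sets and 43 (3636) with set B alone, and 15 to 26 without single libraries. With the replicate block, 10 loci were called for TG Me-X04+ against TG Me-X04-, 7 of them shared with the 10 reported. That block pairs the animals of the transgenic groups and also joins WT animals that share only a number. Small values changed sign: 3110082I17Rik (0.085) and, between TG Me-X04- and WT, Wwp2 (-0.098) with library weights, and Hnrnpk with median centring (0.019), the replicate block (0.044) and the random block (0.029). Without single libraries the TG Me-X04+ against TG Me-X04- range was -0.44 to 0.078 for 3110082I17Rik, -0.56 to 0.15 for Copz1, -0.078 to 0.096 for Hnrnpk, -0.31 to 0.069 for Map2k4, -0.19 to 0.81 for Mir146 and -0.80 to 0.17 for Mir339, and it was -0.080 to 1.06 for Mir155hg between TG Me-X04- and WT. The cause was not tested. The median miRNA gene had 15.2 reads per library, and the part of depth in these changes was not tested.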

Other observations

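Some loci ran against the tendency of set B to hold more reads. Mir181b-2, a locus of the miR-181 family known from lymphocytes, had 85 to 198 reads in the set A libraries and 41 to 86 in set B. Of the 184 miRNA genes, 12 were higher by more than 1 on the log2 scale in set A and 80 in set B, against 1331 and 3924 of 17761 other genes.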
